A study of Trichoderma reesei RUT C-30 with 16 samples.

Results

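Dithiothreitol (DTT) was added to lactose-fed cultures of *Trichoderma reesei*, and the transcriptome with DTT (LD) was compared with that without it (LC). The comparison used the 8 lactose libraries of the 16 in the series. In each of the strains Rut-C30 and Δ*res2*, 2 LC cultures received no DTT and 2 LD cultures received 10 mM DTT for 2 h before harvest. Rut-C30 is a mutagenized strain with high cellulase secretion that carries a truncated *cre1*, the carbon catabolite repressor gene. Δ*res2* is Rut-C30 with the transcription factor gene *res2* replaced by a hygromycin resistance (*hph*) cassette with CRISPR-Cas9, and 1 transformant represents it. All 8 cultures were first grown on glucose and then fed lactose at a constant rate, and the sources used here differ on the hour of the fed-batch phase at sampling. The libraries without lactose (GC without and GD with DTT, in the same strains) were fed glucose instead and enter only where named below.

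DTT reduces disulfide bonds, so that proteins entering the endoplasmic reticulum (ER) cannot fold properly. In fungi this stress raises the genes of ER chaperones, protein glycosylation and ER-associated degradation (ERAD), known as the unfolded protein response, while transcripts of secreted enzymes are lowered, which is called repression under secretion stress. In *T. reesei*, lactose induces the cellulase and hemicellulase genes through the activator Xyr1, so that LC cultures are in a state of high secretion when the reagent arrives.

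The polyA+ libraries held 25377536 to 35679977 counted reads each in the lactose cultures. Log2 counts correlated at r = 0.993 to 0.996 across genes between duplicates and at 0.798 to 0.815 between LC and LD libraries, genes not being independent replicates. TrA1112W was the only gene at 100 or more normalized counts in each Rut-C30 lactose library (3560 at the least) and at 3 counts or fewer in each Δ*res2* one. It was found after the values were seen, and no source used here pairs *res2* with an identifier, so the deletion was not checked by name.

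Lactose cultures answered DTT across most of the genome. Of 8793 genes tested, 3314 rose (37.7%) and 3551 fell (40.4%), where rose and fell mean an adjusted p under 0.005 in edgeR (quasi-likelihood F test, Benjamini-Hochberg). Differentially expressed genes (DEGs) also had to change by more than 2 on the log2 scale and to average at least 100 normalized counts. By these limits 453 genes were higher in LD (5.15%) and 732 were lower (8.32%). The median log2 fold change over all tested genes was −0.05. At the extremes, 64 genes rose and 114 fell by more than 5 on the log2 scale, and 16 rose and 31 fell by more than 7. The 4 LD libraries lay entirely on one side of the 4 LC libraries for all 1185 DEGs, but also for 78.1% of all tested genes. The levels of the DEGs are given as a description only, since the calls used these same libraries. In LC, the later falling DEGs had a median of 1540 normalized counts against 775 over all genes, and the rising ones had 329. In LD these medians were 183 for the falling and 2880 for the rising DEGs. The plot of fold change against mean count shows this spread. In these bulk mycelium samples, fewer expressing cells and less RNA per cell cannot be told apart.

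**Figure D1:**
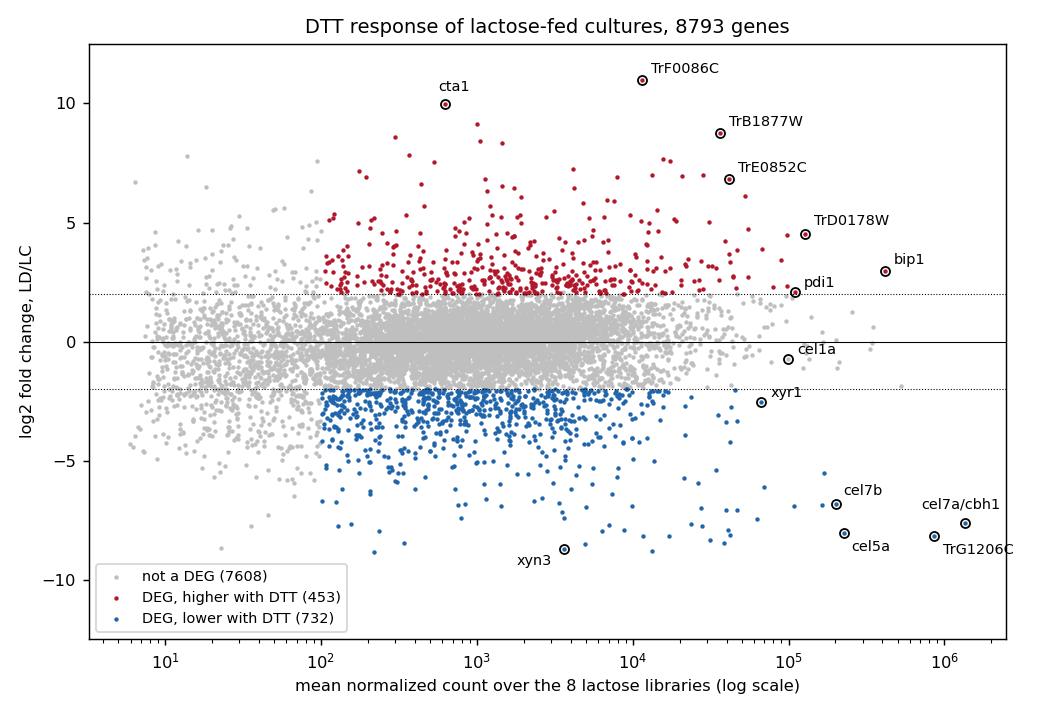
Log2 fold change LD/LC (y axis) against the mean normalized count over the 8 lactose libraries (x axis, log scale), 1 point per tested gene, with the 453 DEGs higher in LD in red, the 732 lower in blue and dotted lines at a change of 2. The cellulase genes *cbh1*, *cel5a* and *cel7b* and TrG1206C sit at the lower right, and the chaperone gene *bip1* at the upper right.

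The cellulase and hemicellulase genes fell furthest as a group. *cbh1* (*cel7a*, TrG0022C, chromosome VII 68371 to 70046, minus strand, in the deposited annotation of the QM6a genome) encodes the main cellobiohydrolase, which releases cellobiose from cellulose chain ends. Without DTT it had 2185840 and 3253710 normalized counts in the Rut-C30 cultures and 2739370 and 2533370 in those of Δ*res2*. With DTT the counts were 15573 and 12270, and 12611 and 13460, respectively. Every LD library was thus more than 100 times below every LC library, and the libraries of 1 condition scattered by far less than that. The log2 fold change was −7.63 ± 0.185 (SE), a 199-fold decrease, with an edgeR adjusted p of 5.7e-13. TrG1206C, which the study's gene ontology (GO) terms place in cellulose breakdown, fell by 8.15 ± 0.189, from 1294080, 1813060, 1837090 and 1847750 normalized counts in LC to 6840, 4879, 5921 and 6118 in LD (Rut-C30 first, then Δ*res2*, here and below). The endoglucanase gene *cel5a* fell by 8.05 ± 0.166, from 419902 to 499717 normalized counts in LC to 1360 to 2054 in LD. A second endoglucanase gene, *cel7b*, fell by 6.81 ± 0.137. For all these genes the LC and LD libraries lay apart in both strains.

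The genes for xylan and oligosaccharide breakdown moved in the same direction. *xyn1* (endoxylanase) had 62753, 99093, 89517 and 82417 normalized counts in LC and 348, 196, 287 and 377 in LD, a fall of 8.12 ± 0.272 on the log2 scale. *xyn3*, another xylanase gene, fell by 8.71 ± 0.238 from 6762, 7436, 6099 and 8577 to 28.5, 15.0, 13.3 and 9.40. Every LD library still held reads of *xyn3*, at a low level. *bxl1* (β-xylosidase) and *cel3a*/*bgl1* (the main extracellular β-glucosidase) fell by 7.90 ± 0.193 and 7.91 ± 0.131. *cel61b*, a gene of the lytic polysaccharide monooxygenases that cut cellulose oxidatively, fell by 8.80 ± 0.278. The other β-glucosidase genes fell by less, with log2 fold changes of −3.77 for *cel3c*, −3.45 for *cel3d*, −3.04 for *bgl3j* and −3.02 for *cel3b*.

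Together, 28 genes of plant cell wall degradation could be recognised from the study's names, its GO terms and RefSeq symbols. The list was assembled after the files were opened and holds only genes from the study's tables of its own DEGs. It is thus no independent evidence of direction. Of the 1720 tested genes that those tables pair with a gene number, 892 fell and 633 were DEGs lower. All 28 fell and 25 were DEGs, with a median log2 fold change of −7.18 and a range of −8.80 to −0.75. The 3 that were not DEGs were *abf2* (arabinofuranosidase) and the genes *cel1a* and *cel1b*, whose β-glucosidases stay inside the cell. *cel1a* had 117339, 127587, 128702 and 124385 normalized counts in LC and 69330, 73744, 74993 and 77733 in LD. The groups lay apart, but the decrease was only 1.68-fold, a log2 fold change of −0.75 ± 0.0788 (adjusted p = 1.08e-06). *cel1b* fell by 1.91 ± 0.0763 and *abf2* by 1.98 ± 0.136. *cel1a* and *cel1b* were named after their values were seen. Of the genes named from RefSeq symbols after their values were seen, *cip1* and *cip2* (cellulose-induced proteins) changed by −6.90 and −8.17, *man5a* (mannanase) by −8.16, *cel12a* (endoglucanase) by −7.46, *cel61a* by −3.34 and *axe1* (acetyl xylan esterase) by −2.58.

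Transcripts of the regulators of these genes changed as well, and not all in 1 direction. *xyr1*, the activator of cellulase and xylanase genes, had 104103, 120065, 119881 and 113464 normalized counts in LC and 18074, 18053, 19632 and 22951 in LD. The groups were apart, with a log2 fold change of −2.54 ± 0.0933 (adjusted p = 2.65e-11). *vib1*, which encodes a transcription factor needed for cellulase formation, fell by 3.65 ± 0.0743, from 5623 to 7505 normalized counts in LC to 433 to 609 in LD. *ace1*, known as a repressor of cellulase genes, moved the other way. Its counts were 13964, 15349, 15933 and 14445 in LC and 52410, 47583, 45090 and 43764 in LD, higher in every LD library. The change of 1.66 ± 0.0826 stayed below the fold limit for DEGs. *xyr1* and *ace1* were named after their values were seen. Of the 9 regulator genes that the study names, 7 fell, 1 rose and 3 were DEGs, all lower, against 633 DEGs lower among the 1720 tested genes that the study's tables pair with a gene number, a share close to that of the regulators. The 3 included the Zn2Cys6 regulator genes TrC1121W (−3.96 ± 0.321) and *pro1* (−2.08 ± 0.0745).

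**Figure D2:**
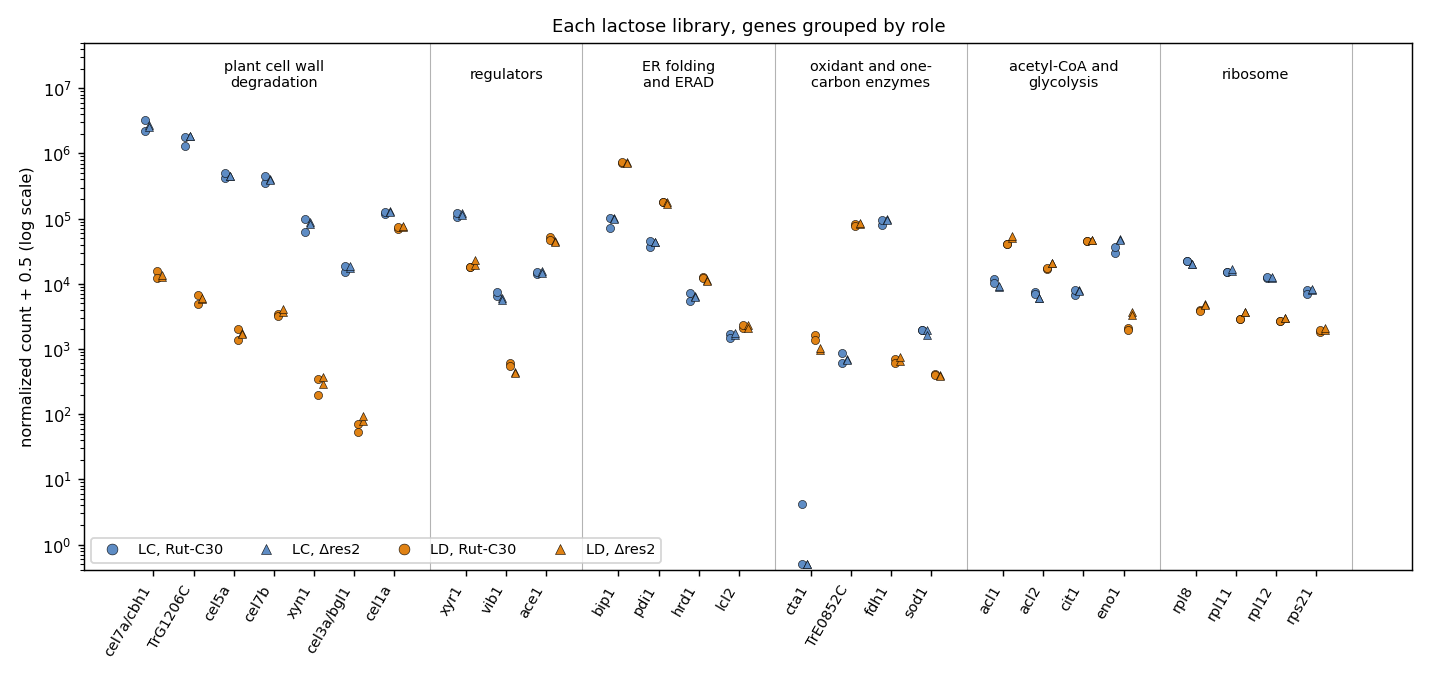
Normalized counts plus 0.5 (y axis, log scale) of named genes in each of the 8 lactose libraries, circles for Rut-C30 and triangles for Δ*res2*, blue for LC and orange for LD. The LC and LD points of *cbh1* lie 199-fold apart, those of *cel1a* and *lcl2* lie close together, and those of the chaperone gene *bip1* and of the catalase gene *cta1* are higher in LD, heights being comparable between libraries but not between genes, since counts are not per length.

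Genes of ER folding rose. *bip1* (TrG0399C, chromosome VII 1228528 to 1230794, minus strand) encodes the Hsp70 chaperone of the ER lumen, a usual marker of the unfolded protein response. It had 73077, 102257, 103889 and 98652 normalized counts in LC and 718267, 740447, 743731 and 722763 in LD. All LD libraries lay far above all LC ones and close to each other. The change was 2.96 ± 0.124, or 7.76-fold, with an adjusted p of 9.73e-11. *pdi1*, for the protein disulfide isomerase that forms and reshuffles disulfide bonds, rose 4.18-fold, by 2.06 ± 0.0977, from 36116, 45714, 43396 and 43566 to 178775, 182915, 177983 and 164958.

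The ERAD genes named by the study rose by smaller amounts. *hrd1*, for the ubiquitin ligase of ERAD, had 5497, 7234, 6509 and 6356 normalized counts in LC and 12709, 12424, 11432 and 11190 in LD, a change of 0.90 ± 0.0836. *lcl2*, for a protein linked to ERAD in yeast, had 1717, 1476, 1660 and 1755 in LC and 2122, 2317, 2330 and 2090 in LD, a change of 0.42 ± 0.0643. In both cases the groups did not overlap and the test was passed, but neither gene was a DEG. In the glucose-fed cultures the estimated gain of the same genes was larger, but this difference was not stable. The log2 fold change LD/LC was smaller than GD/GC by 1.77 for *bip1*, by 1.49 for *hrd1* and by 1.73 for *lcl2* in the fit over 16 libraries, where 7.41% of 9101 genes passed the interaction test at an adjusted p under 0.05 (3.61% with a larger and 3.79% with a smaller value on lactose). With each of the 16 libraries left out in turn, *hrd1* passed throughout, *lcl2* missed in 1 fit and *bip1* in 9, always with the same sign. The number of genes passing varied from 261 to 358 without any 1 of the lactose libraries, against 674 with all, and was 1326, 1652 and 1979 without Δ*res2* GC replicate 2, GD replicate 1 and GD replicate 2. For *bip1* the medians were 20727 normalized counts in GC, 479492 in GD, 99390 in LC and 725406 in LD, so that the untreated lactose cultures started higher. The deposited files of the 4 Rut-C30 glucose libraries are numbered apart from the other 12, which no source used here explains. Within the 8 Δ*res2* libraries, which are numbered in 1 range, the difference was −1.86 for *bip1*, −1.67 for *hrd1* and −1.89 for *lcl2*, but none passed (adjusted p = 0.381, 0.307 and 0.381). In that fit 0 of 8943 genes passed in edgeR (958 at an unadjusted p under 0.05) and 270 in DESeq2. Within the Rut-C30 libraries 341 genes passed, *hrd1* and *lcl2* among them (−1.39 and −1.62) but not *bip1* (−1.75, adjusted p = 0.183).

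Most of the listed genes for other steps of the secretory pathway rose as well. The lists that follow come from the GO terms the study attached to its own DEGs, so they were chosen on these samples and are no independent evidence of direction. All 10 genes of protein glycosylation rose, and 3 were DEGs, among them TrD0600C (3.52 ± 0.129) and TrA0691C (2.59 ± 0.0720). The list's median was 1.58 against −0.05 over all genes. Its member *pmt1*, for a protein O-mannosyltransferase, rose by 1.55 ± 0.106. The 6 glycosyltransferase genes that the study names were mixed, with 3 rising, 1 falling, 2 not passing the test and a range of −1.53 to 2.99. Of 8 genes for targeting proteins to the ER, 7 rose and TrD0442C (2.64 ± 0.0643) and TrA0730W (2.53 ± 0.0659) were DEGs, while 1 did not pass the test. All 6 genes of ER to Golgi vesicle transport rose, with a median of 1.42 and TrA1752W (2.82 ± 0.0692) as the DEG. The 2 genes under ERAD, TrA0270C and TrG0776C, rose by 1.71 and 1.61, and neither was a DEG. Both are already counted above, TrA0270C under targeting to the ER and TrG0776C under glycosylation. The targeting and ER to Golgi lists overlap as well, so these lists are not separate sets of genes. Among the 1720 tested genes that the study's tables pair with a gene number, 724 rose and 405 were DEGs higher. The DEG counts of the GO lists in this paragraph do not stand out from that pool. Outside these lists, and named after their values were seen, *nsf1* (the ATPase that recycles fusion complexes) rose by 1.70 and *ubi4* (polyubiquitin) by 1.45.

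**Figure D3:**
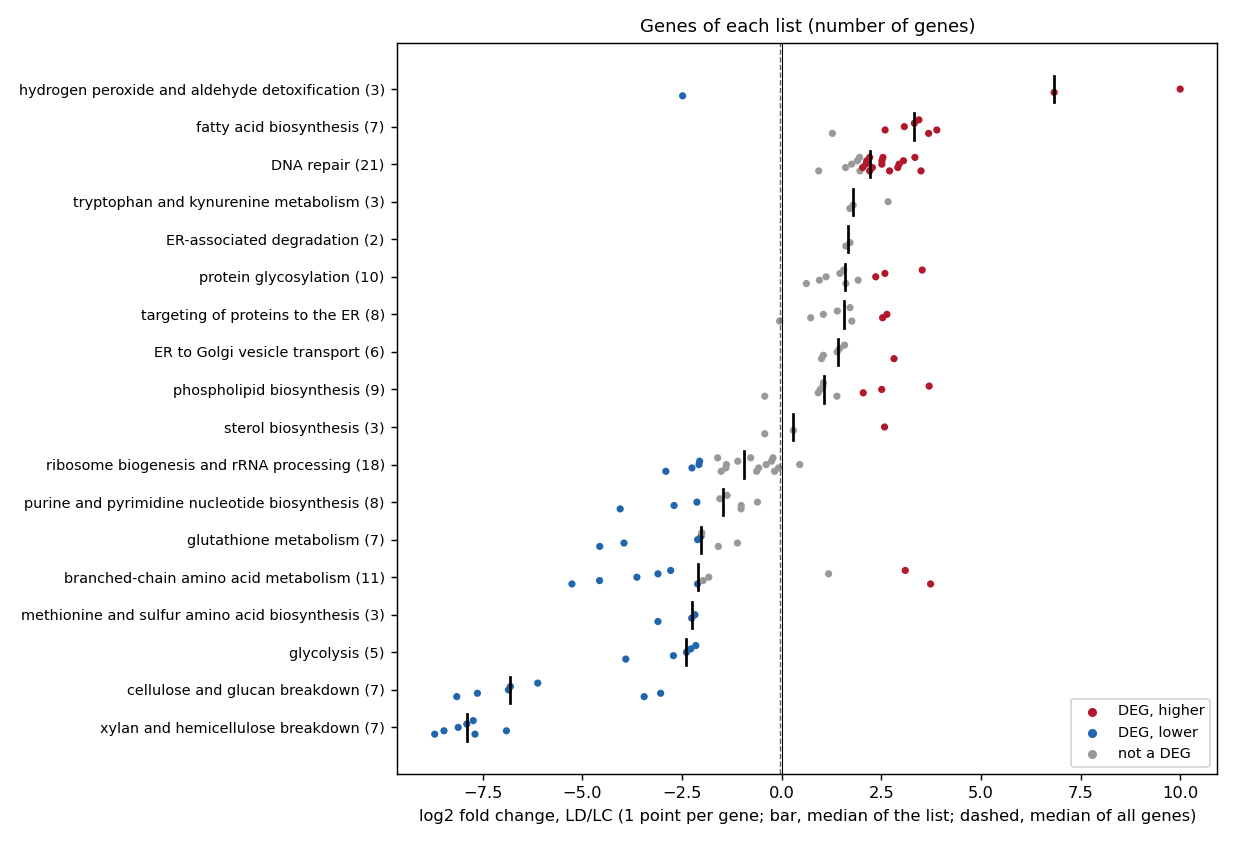
Log2 fold change LD/LC (x axis) of every tested gene of each GO list (y axis, number of genes in brackets), with a bar at the list's median and a dashed line at the median of all genes, −0.05. The 7 genes of xylan breakdown have a median of −7.90, the 10 genes of glycosylation 1.58 and the 7 genes of fatty acid biosynthesis 3.33.

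Fatty acid synthesis genes rose while genes of glycolysis and most, but not all, genes of amino acid metabolism that were listed fell. All 7 genes of fatty acid biosynthesis rose, 6 of them DEGs, with a median of 3.33. The member that was no DEG is a gene the study describes as a polyketide synthase. In the pool of 1720 paired genes, 724 rose and 405 were DEGs higher. TrF1161W had 8881, 8917, 8092 and 8276 normalized counts in LC and 120431, 116023, 130574 and 140307 in LD, a rise of 3.89 ± 0.0970. TrA1803W rose by 3.68 ± 0.120. The LD libraries of both genes were all above the LC ones. Of the genes named after their values were seen, *acl1* and *acl2* encode the subunits of ATP citrate lyase, which makes acetyl-CoA in the cytosol. They rose by 2.19 ± 0.116 and 1.51 ± 0.104. The 2 genes lie beside each other on chromosome VI. *cit1*, for citrate synthase, was also named after its values were seen and rose by 2.59 ± 0.0813. Of 9 phospholipid genes 8 rose and 3 were DEGs, with TrB1370C highest at 3.70 ± 0.0798 and a median of 1.05. Sterol genes gave no common direction. TrC0821W rose by 2.58, the sterol glycosyltransferase gene TrB0858W by 3.15 and *are2* (sterol esterification) by 1.49, whereas *erg3*, described as a C-14 sterol reductase gene, fell by 1.93.

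On the falling side, all 5 glycolysis genes were DEGs, with a median of −2.39. The pool of 1720 paired genes held 892 that fell and 633 DEGs lower. *eno1* (enolase) had 30006, 36471, 49311 and 47670 normalized counts in LC and 2067, 1946, 3714 and 3352 in LD, a change of −3.91 ± 0.0985 without overlap. *pyc1* (pyruvate carboxylase), named after its values were seen, fell by 2.79. The 7 genes of primary and amino acid metabolism that the study names all fell, 6 as DEGs, with a median of −3.11. They share *eno1* with the glycolysis list. They included *uga1* (GABA transaminase, −4.16), *ynk1* (nucleoside diphosphate kinase, −4.05), *hom6* (homoserine dehydrogenase, −3.11), *his3* (histidine synthesis, −2.79), *xki1* (xylulose kinase, −2.26) and *ilv5* (branched-chain amino acid synthesis, −1.83, no DEG). Branched-chain amino acid metabolism as a GO list, which again holds *hom6* and *ilv5*, was split, with 2 DEGs higher and 6 lower of 11. Its extremes were TrB1914C at 3.73 and TrA2055W at −5.27. All 3 genes under tryptophan and kynurenine metabolism rose, with a median of 1.79 and no DEG. Genes of sugar use fell too, namely *gal1* (galactokinase, −2.09), *xdh1* (xylitol dehydrogenase, −3.54) and *lad1* (arabitol dehydrogenase, −0.65, no DEG), all 3 named after their values were seen.

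Sulfur and redox genes did not move as one. Catalase *cta1*, which breaks down hydrogen peroxide, had 3.75 normalized counts in one LC library and 0 in the other 3, but 1641, 1371, 951 and 1045 in LD. Its fitted change of 9.99 depends on the prior count added to such low values. TrE0852C, listed by the study under hydrogen peroxide and aldehyde detoxification, had 862, 620, 700 and 685 in LC and 83890, 76336, 81950 and 85151 in LD, a 114-fold rise (6.83 ± 0.127). *cta1* was near silent in every LC library, TrE0852C lay around the median LC level of all genes (775), and both were far higher in every LD library. The third member of that list, TrF0962C, fell by 2.49. *sod1* (superoxide dismutase) fell by 2.25 and the redox regulator gene TrD0022W by 6.93 ± 0.0944. *fdh1* (formate dehydrogenase) fell by 7.09 ± 0.114, from 81085 to 98064 normalized counts to 614 to 748. All 7 genes under glutathione fell, 4 as DEGs, with TrF1200C (−4.57) and TrG0822C (−3.96) lowest. The least expressed member of that list had only 9.29 to 25.3 normalized counts in LC and 0.791 to 6.64 in LD. A putative glutathione S-transferase gene that the study names, but that list lacks, went the other way. It rose from 195 to 242 normalized counts in LC to 344 to 433 in LD and was no DEG. The 3 genes under methionine and sulfur were DEGs lower, among them *met2* (homoserine acetyltransferase, −2.26) and *hom6*, already counted above. Among the 1720 paired genes, 892 fell and 633 were DEGs lower. *sod1* and *fdh1* were named after their values were seen.

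Genes under DNA repair rose throughout, 21 of 21, with 15 DEGs and a median of 2.21. Across the 1720 paired genes, 724 rose and 405 were DEGs higher. The highest were TrB1428C, from 117 to 206 normalized counts in LC to 1748 to 2112 in LD (3.49 ± 0.140), and TrD0276C (3.34 ± 0.0677). All 5 ribosomal protein genes with a symbol fell, *rpl8* by 2.28, *rpl11* by 2.26, *rpl12* by 2.15, *rps21* by 2.01 and *rps13* by 1.92, the first 4 as DEGs. These 5 are not the whole ribosome, and they were named after their values were seen. Only genes in the study's tables of its own DEGs could be given a RefSeq symbol here. Ribosomal protein genes outside those tables could not appear, so the 5 are no independent evidence of direction. Under ribosome biogenesis, 9 of 18 genes fell, 4 as DEGs, none rose, and the median was −0.94. Of the 1720 tested genes that the study's tables pair with a gene number, the pool these lists come from, 892 fell and 633 were DEGs lower. Neither count of the ribosome biogenesis list stands out from that pool.

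Transporter and surface genes went both ways. Of 10 transporter genes named by the study, 6 rose and 2 fell, with 3 DEGs higher and 2 lower. Of the 1720 paired genes, 724 rose and 892 fell, with 405 DEGs higher and 633 lower. *xlt1* (sugar transporter) fell by 3.48 ± 0.0642, from 13189 to 14476 normalized counts to 1219 to 1238, and *opt2* (oligopeptide transporter) by 3.16. The hexose transporter gene *hxt13* rose from 1176, 2957, 8079 and 8585 to 24290, 27392, 69764 and 77324, by 3.39 ± 0.304. Its Δ*res2* libraries were the higher ones within LC and within LD, and all LD libraries exceeded all LC ones. The polyamine permease gene *tpo4* rose by 2.20 and the putative amino acid transporter gene TrF1204C by 2.46. At the cell surface, the chitinase gene TrA1911W fell by 6.17, the secreted subtilisin gene TrC0005C had a change of −4.02 and *hfb2* one of −4.22 ± 0.353. *hfb2* encodes a hydrophobin, a small disulfide-rich coat protein, and was named after its values were seen. The D-aminopeptidase gene TrF0056W rose by 2.21.

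Several of the widest changes were in genes for which no function was given in the sources used here. TrF0086C had 12.2, 10.5, 8.05 and 14.6 normalized counts in LC and 23247, 25214, 20983 and 22834 in LD, the largest fitted rise of any DEG (10.99 ± 0.127). TrB1877W rose from 145 to 186 normalized counts to 70051 to 75627 (8.74 ± 0.110). TrA0728C had at most 3 counts in every LC library and 489 to 663 normalized counts in LD, at least 173-fold higher against a floor of 3 counts per library. In the other direction, TrD1290C (633 to 710 in LC) and TrE0072W (274 to 811 in LC) were at 3 counts or fewer in every LD library, and so at least 246-fold and 158-fold lower against the same floor. TrD0178W and TrB0335W were among the 5 rising DEGs with the highest counts. TrD0178W had 10368, 11144, 10654 and 10533 in LC and 198562, 221192, 276774 and 283635 in LD, a rise of 4.51 ± 0.119. TrB0335W rose by 4.49 ± 0.210.

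The changes moved a large part of each library. The shares of the DEGs are a description, since the calls used these same libraries. DEGs lower in LD made up 33.0% ± 2.28 (SD, n = 4) of the counts in LC and 1.65% ± 0.0297 in LD, while the DEGs higher in LD went from 2.23% ± 0.0504 to 20.9% ± 0.493. The 28 degradation genes alone fell from 21.4% ± 2.14 to 0.465% ± 0.0211 of the counts. *cbh1* held 8.46% ± 1.28 of LC libraries and 0.0473% ± 0.00740 of LD libraries, and *bip1* 0.297% ± 0.0254 and 2.56% ± 0.184. The 100 genes with the most counts in each library took 45.3% ± 2.55 in LC and 36.0% ± 1.84 in LD, a difference with an exact two-sided permutation p of 0.0286, the smallest that 4 against 4 libraries can give. Without *cbh1* the shares were 40.3% and 36.0% with p = 0.0857 in the same exact permutation test, so that difference rested in part on 1 gene. Of the 100 genes highest in LC, 32 were DEGs lower and 3 DEGs higher. Of the 100 highest in LD, 33 were DEGs higher and 0 lower. Over all tested genes, 8.32% were DEGs lower and 5.15% DEGs higher. Ranking by 1 condition favours genes that are high in it. Of the 100 genes with the highest mean over the 8 libraries, 20 were DEGs lower and 19 higher. The LC and LD lists of 100 shared 49 genes.

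**Figure D4:**
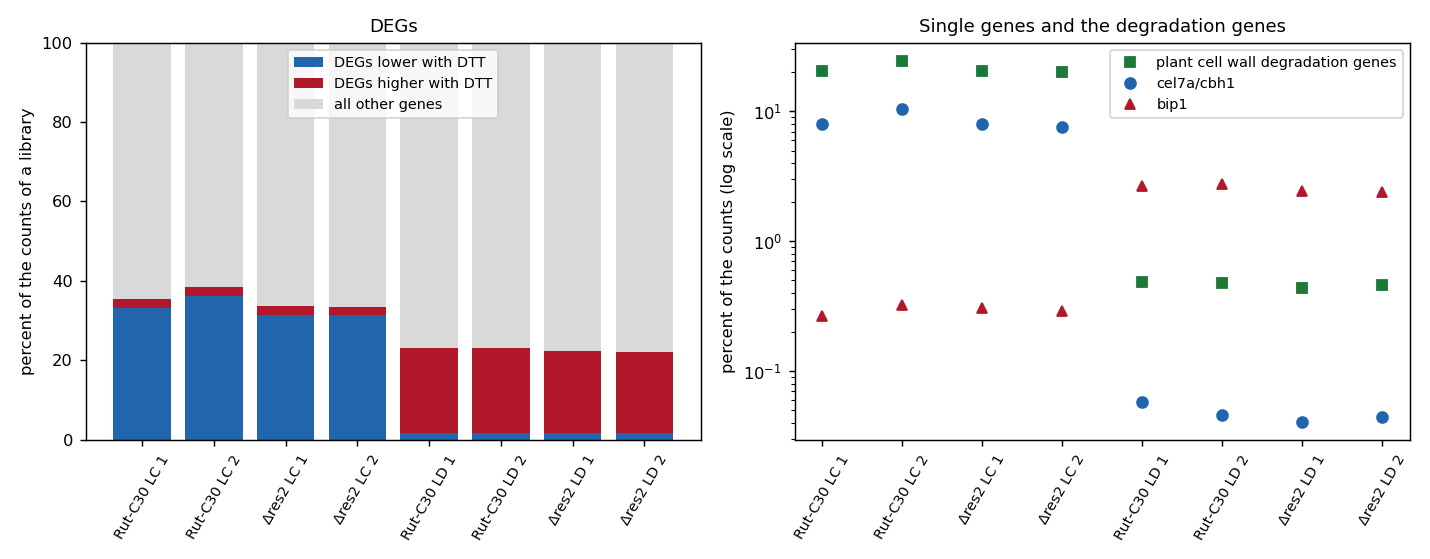
Percent of each lactose library's counts taken by the DEGs (left, stacked bars, y axis 0 to 100) and by the degradation genes, *cbh1* and *bip1* (right, y axis on a log scale), 1 bar or set of points per library. DEGs lower in LD take 33.0% of LC and 1.65% of LD counts on average, and *bip1* rises from 0.297% to 2.56%.

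Some of the falling genes lie side by side. Counting tested genes in order along each chromosome, 5 runs of 4 or more adjacent DEGs of 1 direction were found, all of them lower, with 21 genes. The longest lies on chromosome III from 5197970 to 5210456 and holds TrC1548C (−3.06), TrC1549W (−2.87), TrC1550C (−5.28), *cel3a*/*bgl1* and *bxl1*, so that the β-glucosidase and β-xylosidase genes are neighbours. Another, on chromosome VI from 1584195 to 1598778, holds *xyn1* and TrF0477C (−8.49). *axe1*, *cip1* and *cel61a* form a run of 3 on chromosome V from 2216541 to 2222382. Among rising DEGs no run exceeded 3 genes, and one of these joined *hxt13* to TrA0158W (7.83 ± 0.196) on chromosome I. Whether runs of this length exceed those of shuffled gene order was not tested.

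No DEG of one strain was a DEG in the opposite direction in the other. In a fit over the 8 libraries with a mean per strain and condition, Rut-C30 gave 462 DEGs higher (5.2%) and 755 lower (8.49%) of 8889 genes, and Δ*res2* gave 471 (5.3%) and 699 (7.86%). The strains shared 1066 DEGs of the same direction, and 151 were DEGs of Rut-C30 but not of Δ*res2* and 104 the reverse. *cbh1* fell by 7.61 in Rut-C30 and by 7.66 in Δ*res2*, and *bip1* rose by 3.06 and 2.86. The test of the difference itself was passed by 350 genes (3.94%) at an adjusted p under 0.05 and by 0 when the spread was estimated from all 16 libraries (66 at an unadjusted p under 0.05, and 365 by DESeq2 on the lactose libraries). Of the 350, 70 had log2 fold changes of opposite sign in the strains. The test was passed by 161 genes without Rut-C30 LD replicate 1, by 223 without Rut-C30 LD replicate 2, by 604 without Rut-C30 LC replicate 2, and by 176, 191 and 199 without Δ*res2* LC replicate 1, LC replicate 2 and LD replicate 2. Genes of the small nucleolar RNPs that modify ribosomal RNA stood among them. *gar1* (TrB0722W) had 1475, 1349, 1446 and 1455 normalized counts in LC and 123, 133, 259 and 289 in LD, level across strains in LC but lower in LD of Rut-C30 than in LD of Δ*res2*. Rut-C30 thus had a log2 fold change of −3.46 and Δ*res2* one of −2.40, with an adjusted p of 0.000702 for the difference. *cbf5*, for the pseudouridine synthase of the same particle, changed by −1.57 and −0.44. Its difference had an adjusted p of 0.000248, while over both strains its change of −1.0 ± 0.246 missed the limit (adjusted p = 0.00789), which it passed in either strain alone and in a fit with a mean per strain and condition. *nhp2* and *snu13*, for their core proteins, and *tfIIIA*, whose yeast counterpart serves 5S ribosomal RNA transcription, fell less in Δ*res2* by 0.86, 0.85 and 1.12.

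**Figure D5:**
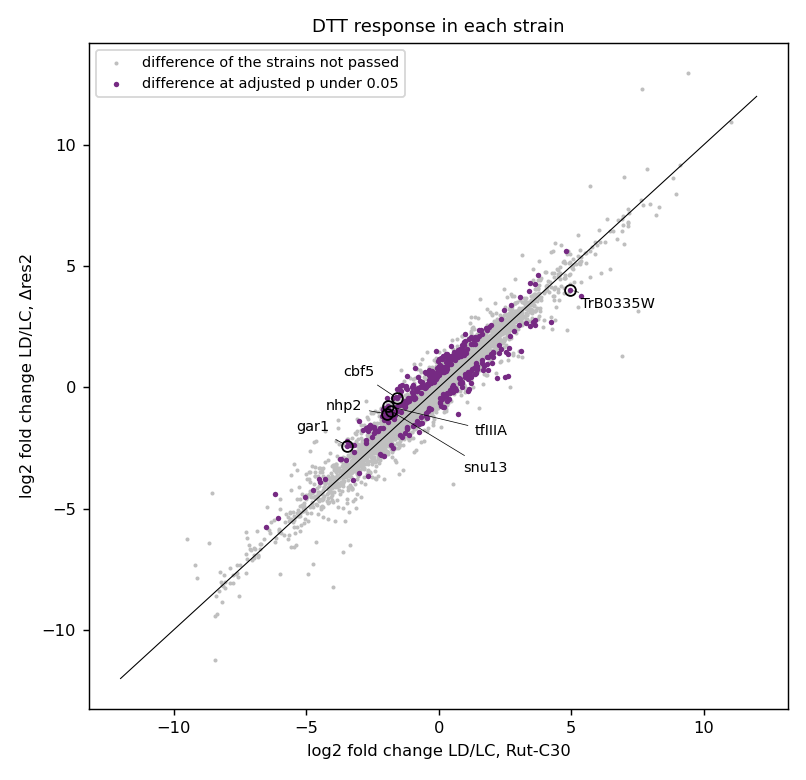
Log2 fold change LD/LC in Δ*res2* (y axis) against that in Rut-C30 (x axis), with the line of equal change. Each point is 1 of the 8793 genes tested for LD/LC, where it was also in the fit per strain. Purple points are genes whose difference passed at an adjusted p under 0.05. In the fit per strain 350 of 8889 genes did so, and those not tested for LD/LC are not drawn. The labelled *gar1*, *cbf5*, *nhp2*, *snu13* and *tfIIIA* lie above the line while TrB0335W lies below it.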

How the data were processed

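The authors aligned single reads of stranded polyA+ libraries to the *T. reesei* QM6a genome with STAR 2.7.8a, removed reads matching more than once, and counted reads overlapping coding sequences with HTSeq 0.5.3. The deposited values used here are these raw counts per gene. Whether counting used strand, and so how antisense reads were treated, is not given in the sources used here, and genes with near-identical copies lose their shared reads. From the counts, edgeR 4.0.16 (R 4.3.3, limma 3.58.1) was run with filterByExpr, TMM scaling and a robust quasi-likelihood fit of strain and DTT on the 8 lactose libraries, with 5 residual degrees of freedom. Normalized counts are counts divided by scaled library size and are not per length. Standard errors were derived from the F statistic. DEG limits (adjusted p 0.005, log2 fold change 2, mean count 100) followed the study. Strain differences came from a fit with a mean per strain and condition, and differences from glucose-fed cultures from all 16 libraries. DESeq2 1.42.0 was an alternative. Named genes were those the study names, the extremes of fold change and count, genes of the longest runs and list extremes, apart from those said to be named after values were seen. The members and lists were chosen with earlier results of these data known. Cultures are biological duplicates per the study. In simulated counts, 97% of genes raised 8-fold and 100% of genes lowered 8-fold were called in the LD/LC fit over 8659 genes. Only 200 well-expressed genes were changed, as many up as down. The simulation cannot test scaling under the far wider response of the data, nor genes near the count limit. For the strain difference, 95.5% of 200 genes changed 2-fold in LD of Δ*res2* passed, and so did 15 unchanged genes. Gene products, promoters and keyword lists were not used here.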

Additional observations from a re-analysis of the deposited data

Results flagged for a closer look

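The response to DTT differed between the strains for 10 of the genes named above, by the interaction test at an adjusted p under 0.05 in the lactose libraries. The log2 fold change was higher in Δ*res2* than in Rut-C30 for *cbf5* by 1.13, *tfIIIA* by 1.12, *gar1* (TrB0722W) by 1.06, *nhp2* by 0.86, *snu13* by 0.85, *acl1* by 0.59, *acl2* by 0.55, TrA1803W by 0.55 and *rpl8* by 0.46, and it differed by −0.95 for TrB0335W. The small nucleolar RNP genes, *tfIIIA* and TrB0335W passed with each library left out in turn, whereas *rpl8*, *acl1*, *acl2* and TrA1803W missed the limit in 6, 5, 5 and 4 of the 8 fits.

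Over both strains, the interaction test of lactose-fed against glucose-fed cultures was passed by 22 of the named genes, none of which passed within the Δ*res2* libraries alone, with the same sign there. LD/LC was below GD/GC by a log2 difference of −4.30 for *xyn1*, −3.89 for TrA0809C (cellulose breakdown), −3.29 for TrG0019C, −2.91 for TrC0410W, −2.89 for TrC1548C, −2.84 for *cel3d*, −2.62 for *fdh1*, −2.56 for *ilv5*, −2.43 for *hom6*, −2.24 for *xki1*, −1.92 for TrC1550C, −1.77 for *bip1*, −1.73 for *lcl2*, −1.49 for *hrd1*, −1.26 for *erg3* and −1.14 for *pmt1*. It was above GD/GC by 3.85 for TrG0953W, 2.63 for TrG0579W, 1.96 for TrB0858W, 1.71 for *tpo4*, 1.48 for TrD0178W and 1.40 for *cbf5*. With each of the 16 libraries left out in turn, *fdh1*, TrC0410W, TrC1550C, *cel3d*, *xki1*, *cbf5*, *hrd1*, TrG0579W and TrG0953W passed throughout, *lcl2*, TrC1548C, *xyn1*, *tpo4* and *ilv5* missed the limit in 1 to 3 fits, and the other 8 in 9 to 12. With a mean per strain and condition, the biological coefficient of variation was 0.355 over all 16 libraries and 0.0711 over the 8 lactose ones. In the lactose fit of strain and DTT it was 0.0866.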

How the results depend on the processing

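Of the genes given with a fold change above, all kept their direction in each alternative tried for LD/LC. The counts of DEGs stayed within 1.5 times of 453 higher and 732 lower with DESeq2 (476 and 694), other size factors, library totals (518 and 631, with the median log2 fold change of all genes at 0.091 instead of −0.0515), a filter of 1 count, the 4 libraries of 1 strain fitted alone (480 and 736 for Rut-C30, 466 and 668 for Δ*res2*) and any library left out (449 to 468 and 693 to 744). No gene was called in opposite directions. With the spread of all 16 libraries, 14 of the 125 genes checked no longer passed 0.005. Among them were *lcl2*, *cel1a*, *cel1b*, *lad1*, *axe1*, TrC1121W, *hfb2*, *sod1* and *are2*. The limit was also missed by *hxt13*, *cel3b* and TrE0072W in Rut-C30 alone and by *hfb2* and *are2* in Δ*res2* alone. A fold limit of 1 gave 1368 and 1670, a test against that limit 1054 and 1320, and no count minimum 559 and 1024. In the test against a log2 fold change limit of 1, 10 of the 125 genes checked no longer passed 0.005. Replicate numbers are shared by the groups but did not pair them, with correlations of same-numbered deviations of −0.0195 to 0.134 over 6 pairs of groups. A replicate block gave 454 and 731 DEGs, 396 genes for the strain difference and 588 for the difference from glucose.

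The strain difference depended on the spread assumed. With the spread of all 16 libraries 0 genes passed, against 350 in the lactose fit. Only 66 of all genes in that 16-library fit had an unadjusted p under 0.05. DESeq2 on the lactose libraries gave 365 genes. Leaving out 1 library gave 161 (without Rut-C30 LD replicate 1) to 604 (without Rut-C30 LC replicate 2) genes. The difference from glucose went from 674 genes to 1263 with DESeq2 and to 261 to 1979 with 1 library left out, lowest without Rut-C30 LD replicate 2 and highest without Δ*res2* GD replicate 2. In fits of 1 strain's libraries, chosen after seeing the data, 341 genes passed for Rut-C30 and 0 for Δ*res2* (958 at an unadjusted p under 0.05). The share of the 100 top genes differed by −9.30 percentage points, by −4.33 without *cbh1* (p = 0.0857), and by −10.6 to −8.73 with 1 library left out in turn (exact permutation test, p up to 0.0571).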
